A study of Mus musculus with 6 samples.

Results

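The nuclear genes of the mitochondrial respiratory chain were compared between Hes1 KO and Hes1 WT mouse T-cell leukemias. Members were the genes whose platform symbol named a subunit of complex I (Ndufa, Ndufb, Ndufc, Ndufs, Ndufv and the Ndufaf assembly factors), II (Sdha to Sdhd), III (Uqcr), IV (Cox4 to Cox8) or V (Atp5). A named probe was on the array for 87 such genes, and 78 of them had a probe detected on at least 3 arrays, out of 11241 features tested in all. The 78 comprised 35 genes of complex I, 7 complex I assembly factors, 3 genes of complex II, 6 of complex III, 11 of complex IV and 16 of complex V. By the labels, the 3 KO arrays held leukemia treated with 4-hydroxy-tamoxifen for 36 hours. The 3 WT arrays held leukemia treated with ethanol for 36 hours. The labels also describe tamoxifen given to mice (5 mg per mouse), and which treatment preceded the arrayed RNA is not clear from them. Every array, KO and WT, came from T-ALL driven by ΔE-NOTCH1, an activated form of NOTCH1, and carried the Rosa26 Cre-ERT2 and Hes1flox/flox alleles. The leukemias were made by retroviral transduction of bone marrow and grown in lethally irradiated NRG mice. Cre-ERT2 is a recombinase that tamoxifen compounds switch on, and Rosa26 is a locus active in most cell types. The alleles are those of the transduced donor cells, and cells of the host mice do not carry them. By the labels 4-hydroxy-tamoxifen was given to the KO arrays only, so loss of Hes1, the drug and active Cre cannot be told apart.

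The respiratory chain sits in the inner mitochondrial membrane. Complexes I and II pass electrons from NADH and succinate to coenzyme Q, complex III passes them on to cytochrome c, and complex IV hands them to oxygen. Complexes I, III and IV pump protons, and complex V, the ATP synthase, uses the returning protons to make ATP. Most subunits are encoded in the nucleus and a few in mitochondrial DNA. The nuclear factors NRF1 and GABP are known to bind the promoters of many of the nuclear genes. HES1 is a transcriptional repressor downstream of NOTCH1 that binds N box and class C E box elements.

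RefSeq promoter windows (GRCm38.p6, 250 bases before to 50 after the start) were found for 67 of the 78 members. The NRF1 motif, spelled GCGCA, any base, GCGC and read on both strands as all motifs were, was in 25.4% of these genes (17) and in 5.19% of all 27025 genes with a window. The GABP motif CCGGAAG was in 26.9% of members (18) and in 9.93% of all genes. For HES1 the class C element CACGNG was in 38.8% of members and 30.3% of all genes, and the N box CACNAG was in 49.3% and 46.1%; a window with CACGAG counts for both. The shares were not matched for base composition, and a match is a run of letters, not a measured binding site. The windows below are of genes whose values are given later, 1 per complex, 5′ to 3′ on the gene's strand, with NRF1 and GABP matches in capitals. They are Ndufb2 (chr6:39592315-39592614, plus strand), Sdhd (chr9:50603800-50604099, minus strand), Uqcrc1 (chr9:108936398-108936697, plus strand), Cox6a1 (chr5:115348909-115349208, minus strand) and Atp5e (chr2:174464052-174464351, minus strand).
Ndufb2: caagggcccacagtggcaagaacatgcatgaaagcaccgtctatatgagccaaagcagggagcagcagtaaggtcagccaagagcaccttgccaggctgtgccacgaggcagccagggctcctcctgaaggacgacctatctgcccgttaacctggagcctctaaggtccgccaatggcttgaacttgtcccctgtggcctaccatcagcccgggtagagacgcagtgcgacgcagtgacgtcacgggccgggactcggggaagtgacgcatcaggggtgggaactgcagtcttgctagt
Sdhd: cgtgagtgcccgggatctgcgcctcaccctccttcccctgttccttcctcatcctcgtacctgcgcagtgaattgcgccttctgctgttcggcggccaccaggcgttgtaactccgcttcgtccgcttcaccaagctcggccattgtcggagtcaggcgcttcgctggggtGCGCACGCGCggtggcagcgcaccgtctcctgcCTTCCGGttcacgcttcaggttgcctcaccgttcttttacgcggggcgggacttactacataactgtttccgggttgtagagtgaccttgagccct
Uqcrc1: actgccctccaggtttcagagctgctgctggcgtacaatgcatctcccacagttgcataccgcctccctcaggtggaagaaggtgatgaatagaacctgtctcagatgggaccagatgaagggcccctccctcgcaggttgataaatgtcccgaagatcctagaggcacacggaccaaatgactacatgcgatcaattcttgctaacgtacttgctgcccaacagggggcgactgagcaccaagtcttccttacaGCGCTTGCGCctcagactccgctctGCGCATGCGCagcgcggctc
Cox6a1: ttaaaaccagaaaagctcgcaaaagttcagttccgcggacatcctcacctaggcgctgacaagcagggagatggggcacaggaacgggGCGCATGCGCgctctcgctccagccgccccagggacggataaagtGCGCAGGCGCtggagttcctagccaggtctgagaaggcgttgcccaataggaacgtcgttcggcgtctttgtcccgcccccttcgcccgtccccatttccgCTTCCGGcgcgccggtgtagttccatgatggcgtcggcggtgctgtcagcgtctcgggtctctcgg
Atp5e: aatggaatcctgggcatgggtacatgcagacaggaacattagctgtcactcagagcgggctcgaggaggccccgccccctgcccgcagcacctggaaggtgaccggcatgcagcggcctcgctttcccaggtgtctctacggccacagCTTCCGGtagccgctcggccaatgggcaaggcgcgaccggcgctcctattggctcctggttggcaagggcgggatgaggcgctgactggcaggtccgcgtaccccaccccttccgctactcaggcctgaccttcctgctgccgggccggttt
The Sdhd and Cox6a1 windows hold both kinds of match, Uqcrc1 only NRF1 matches and Atp5e only a GABP match. In complexes II, III and IV, 2, 4 and 8 genes had a window. Sdhd, Uqcrc1 and Cox6a1 were the only ones of them with an NRF1 match, so these windows do not stand for their complexes. Ndufb2 has no NRF1 or GABP match, and its window holds 2 class C elements and 1 N box. That N box covers the same bases as 1 of the class C elements. The Sdhd window also holds 1 class C element, inside its NRF1 match, and 1 N box. Those of Uqcrc1, Cox6a1 and Atp5e hold neither element.

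Hes1 itself, read by 1 probe, had normalised log2 intensities of 4.51, 4.44 and 4.66 on the KO arrays, against 10.97, 11.15 and 10.82 on the WT arrays. It was detected on no KO array and on every WT array, and was at least 53.5-fold lower in KO (limma, adjusted p = 1.0e-06). The labels and files do not place this probe within or outside the floxed stretch. Mean raw intensity was 520 on KO replicate 1, below the 630.5 to 713 of the other 5 arrays. Of 18 T-lineage markers, 16 had a named probe and 12 were detected on all 6 arrays, among them Cd3e, Thy1, Ptcra and Bcl11b. Cd8a, Cd5 and Cd7 were detected on none and Cd4 on 2. The summed level of the T-lineage markers was 121616 to 128171 on KO arrays and 116739 to 124408 on WT arrays. No myeloid or NK cell marker was detected on 3 or more arrays, and the B cell, erythroid and megakaryocyte lists each had 1 such marker, none of them on all 6. Pecam1, on the list of stroma, endothelium and epithelium, was the only gene of the lists for other cell types detected on all 6 arrays. It measured 0.53 higher in KO (limma, adjusted p = 0.378), and whether its signal came from the leukemia or from other cells was not tested. Pecam1 was also the only gene of its list that was tested. The summed level of the list was 899 to 1235 on KO arrays and 660 to 831 on WT arrays, and its part in the results below was not tested. In bulk samples like these, fewer cells of a type and less RNA per cell cannot be told apart.

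With all 6 arrays the median change was below 0 in each of the 5 complexes, and for no single gene did the difference pass the test. Of the 78 members, 66 had a lower mean in KO, against 49.5% of all features. The median log2 change, KO minus WT, was -0.096 over the members and 0.0026 over all features. In limma's test 0 of the 78 had an adjusted p under 0.05, where 0.0623% of all features did (0.0356% higher and 0.0267% lower in KO). At an unadjusted p under 0.05 there was 1 member, Atp5e, lower in KO, against 4.27% of all features in that direction and 9.27% in both. The adjusted p of the members lay between 0.304 and 0.990. All 3 KO values lay below all 3 WT values for 8 members (10.3%), against 7.69% of all features, and above them for 1 member (1.28%), against 8.49%. Together these 9 members are a smaller share than the 16.2% of all features whose groups did not overlap. The precision limits what can be said: the 95% interval of the change lay within 0.5 of 0 for 58 members, and for the others it reached past that size.

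**Figure D1:**
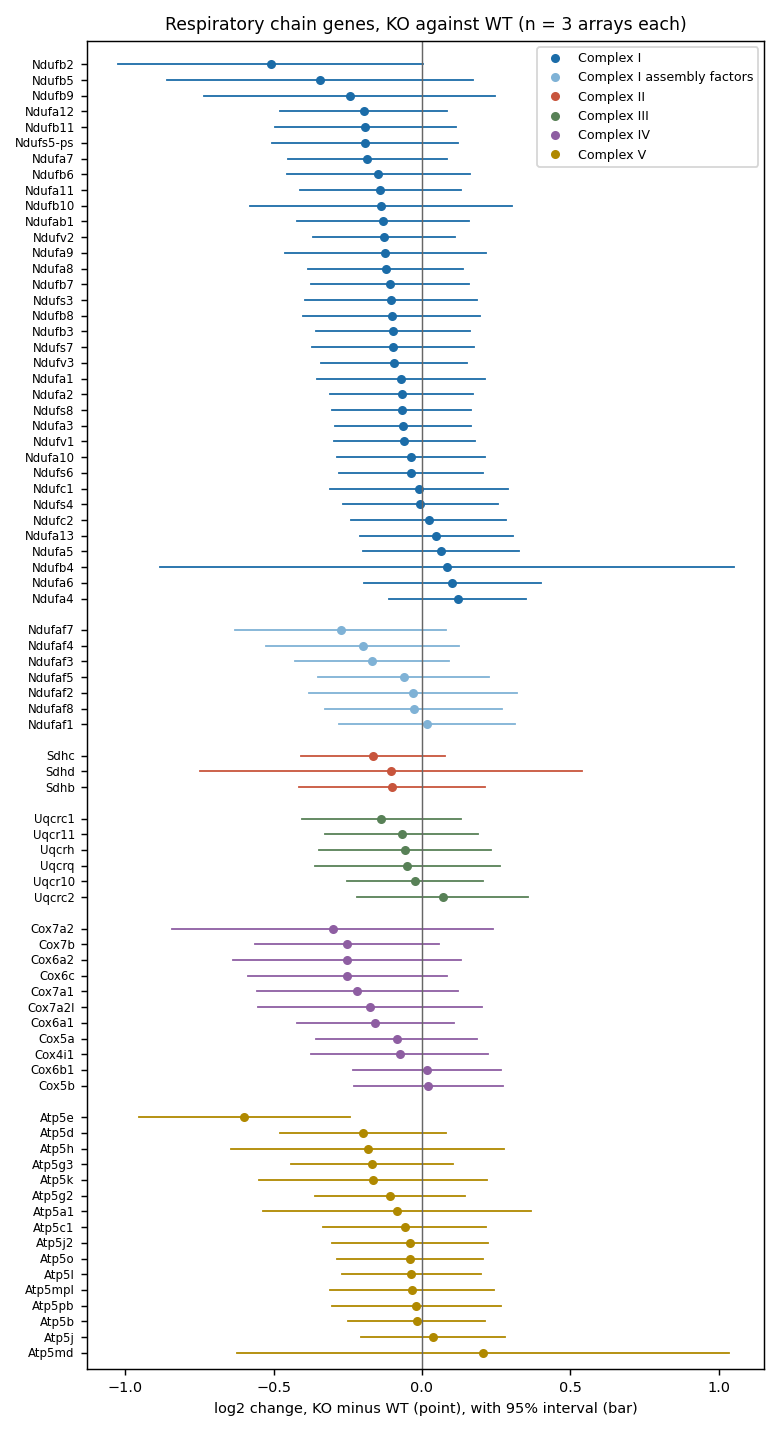
Log2 change, KO minus WT, of each of the 78 members (point) with its 95% interval (bar), from 3 KO and 3 WT arrays, ordered by size within complexes I to V. Most points lie left of 0 and only the bar of Atp5e leaves out 0.

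Much of the shift lay on KO replicate 1. That array held the lowest value of 53 of the 78 members, or 67.9%, against 31.3% of all features, and 71 members were below their own mean there. The median deviation of the members from their mean over the 6 arrays was -0.16 on KO replicate 1, 0.013 on KO replicate 2 and 0.021 on KO replicate 3. It was -0.022 on WT replicate 1, 0.091 on WT replicate 2 and 0.048 on WT replicate 3. KO replicates 2 and 3 thus lay between the WT arrays, while WT replicate 2 held the highest value of 34 members. KO replicate 1 was the lowest array for 23 of 35 complex I genes, 5 of 7 assembly factors, 3 of 3 complex II genes, 4 of 6 complex III genes, 7 of 11 complex IV genes and 11 of 16 complex V genes. Among features with a mean log2 intensity of at least 12, the median deviation on KO replicate 1 was -0.12 over 51 members and -0.036 over all 1171 features. It was -0.18 over 6 members and -0.033 over all features from 10 to 12. From 8 to 10 it was -0.22 over 10 members and -0.0081 over all features. Below 8 it was -0.26 over 11 members and 0.026 over all features.

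**Figure D2:**
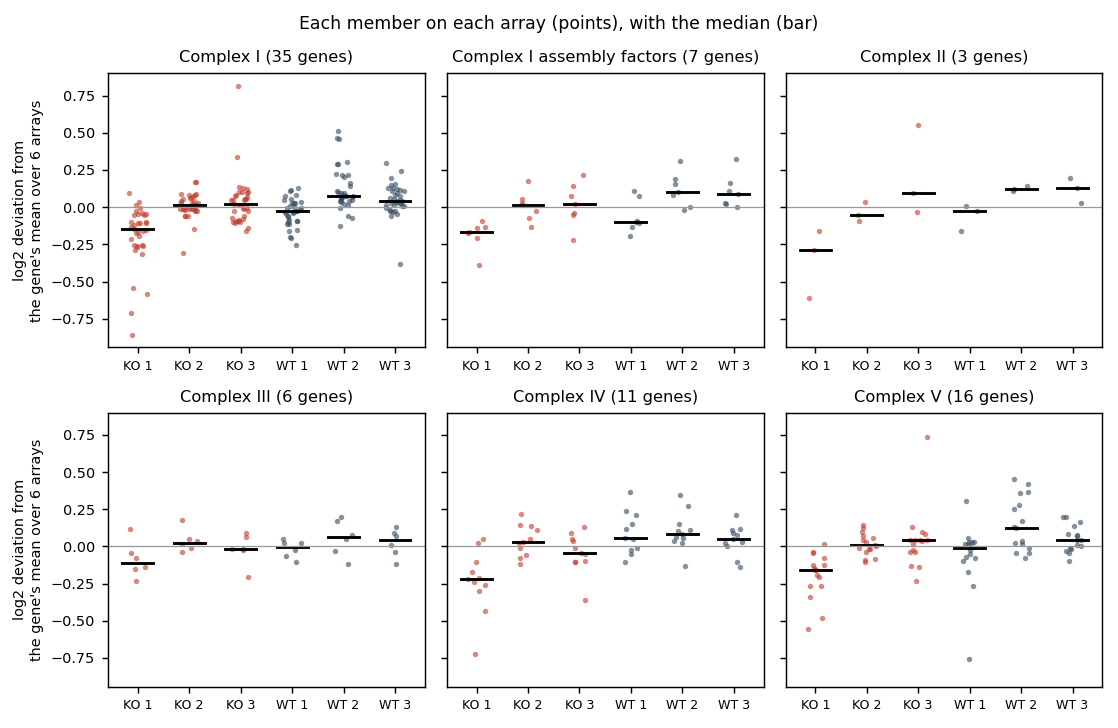
Deviation of each member from its own mean over the 6 arrays (points, log2), with the median of each array (bar), in 1 panel per complex and with KO arrays left of WT arrays. KO replicate 1 has the lowest median in every panel, -0.14 in complex I and -0.22 in complex IV.

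Without KO replicate 1, 50 of the 78 members had a lower mean in KO and the median change was -0.030. By complex the median was then -0.036 in complex I (25 of 35 lower), 0.015 in complex II (1 of 3), -0.026 in complex III (4 of 6), -0.055 in complex IV (8 of 11) and 0.0013 in complex V (8 of 16). The change was more negative with the array than without it for 68 members, and 16 members turned from below to above 0 when it was left out. Leaving out WT replicate 2 also moved the median by more than 1.5 times, to -0.055 with 56 members lower. No member passed the test with either array left out.

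**Figure D3:**
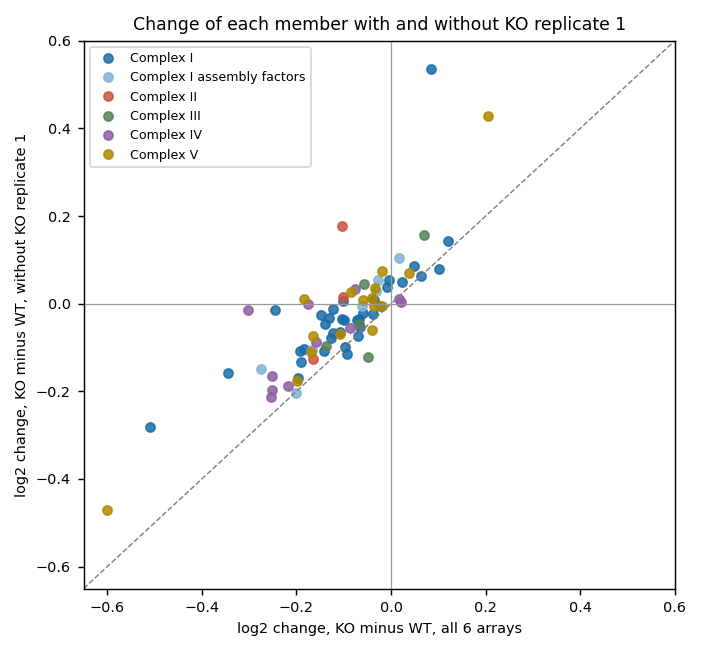
Log2 change of each member without KO replicate 1 (vertical axis) against the change with all 6 arrays (horizontal axis), coloured by complex. Most points lie above the diagonal, 68 of 78, and Atp5e stays lowest among the complex V genes on both axes.

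Complex I, the NADH dehydrogenase, had a median change of -0.099, with 29 of 35 genes lower in KO. The 5 measured genes of its catalytic core, Ndufv1, Ndufv2, Ndufs3, Ndufs7 and Ndufs8, which belong to the arm that takes electrons from NADH to coenzyme Q, were all lower, with changes of -0.13 to -0.060. Of these, 4 had their lowest value on KO replicate 1. The median of the 5 was -0.098, or -0.036 without KO replicate 1 and -0.037 without WT replicate 2, with all 5 still lower. The 10 Ndufb genes encode accessory subunits of the membrane arm, and 9 of them were lower, with a median of -0.14. All 10 had their lowest value on KO replicate 1, and their median without it was -0.042. The 14 Ndufa and Ndufab1 genes, most of them other accessory subunits, were lower in 10 cases with a median of -0.070, or -0.035 without KO replicate 1.

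Ndufb2 had log2 intensities of 6.66, 7.22 and 7.46 on the KO arrays, against 7.50, 7.88 and 7.49 on the WT arrays. All KO values lay below the WT values, KO replicate 3 narrowly so. The change was -0.51 ± 0.22 (SE; limma, adjusted p = 0.543), and -0.28 without KO replicate 1. Ndufb5 measured 8.50, 8.74 and 9.38 in KO and 9.10, 9.21 and 9.34 in WT, a change of -0.34 ± 0.22 (SE; limma, adjusted p = 0.657) that was -0.16 without KO replicate 1. Here the groups overlapped, since KO replicate 3 was the highest array of all. Ndufb9 measured 7.58, 8.32 and 8.21 in KO and 8.09, 8.46 and 8.29 in WT, with a change of -0.24 that was -0.015 without KO replicate 1.

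Ndufa4 was the single member whose KO values all lay above the WT values. It measured 14.12, 14.17 and 14.21 in KO, against 14.00, 14.05 and 14.09 in WT. The change was 0.12 ± 0.099 (SE; limma, adjusted p = 0.725), and it was -0.13 under median scaling, where the median of all features was -0.17. Ndufa4 is named for complex I but is known as a subunit of complex IV. Ndufa6, an accessory subunit that binds the acyl carrier protein Ndufab1, measured 13.59, 13.58 and 13.47 in KO and 13.24, 13.61 and 13.49 in WT. Its groups overlapped, with WT replicate 1 standing lowest, and its change of 0.10 was also negative under median scaling (-0.14). Ndufb4, close to the detection limit, ranged from 4.97 to 6.65 in KO and from 5.45 to 6.29 in WT, so its change of 0.084 had an SE of 0.41. Ndufa13, also known as GRIM-19 and the brightest complex I probe, measured 14.11, 14.18 and 14.26 in KO and 14.05, 14.26 and 14.10 in WT, a change of 0.049 that was -0.23 under median scaling. Ndufa12, Ndufa7, Ndufv2 and Ndufv3, singled out here after their values were seen, also had groups that did not overlap, with changes of -0.20, -0.18, -0.13 and -0.093. Ndufs5-ps is annotated as a pseudogene of Ndufs5, and its probe's value (-0.19) was not tested for signal from the parent transcript.

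The Ndufaf genes encode factors that help assemble complex I without staying in it. Of the 7 tested, 6 were lower in KO with a median of -0.062. Single arrays moved this: 4 were lower with a median of -0.0060 when KO replicate 1 was left out, and 3 with a median of 0.0024 when WT replicate 2 was. The median was -0.12, -0.14 and -0.14 when KO replicate 2, KO replicate 3 or WT replicate 1 was left out. Of the other complex I assembly factors tested, 4 of 6 were lower. Foxred1 measured 10.32, 10.29 and 10.18 in KO and 10.39, 10.52 and 10.41 in WT, so its groups did not overlap (change -0.18; limma, adjusted p = 0.639). Tmem126b measured 7.94, 8.10 and 8.24 in KO and 8.31, 8.36 and 8.22 in WT, with the highest KO value just above the lowest WT value. Ecsit was the opposite case, with 9.59, 9.66 and 9.60 in KO, all above 9.35, 9.52 and 9.57 in WT, but its change of 0.14 was -0.057 under median scaling.

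Complex II, succinate dehydrogenase, is wholly nuclear encoded. Its flavoprotein gene Sdha was not detected, so 3 of its 4 subunits were compared, with a median of -0.10. Sdhc, a membrane anchor, measured 12.04, 12.14 and 12.17 in KO, against 12.21, 12.31 and 12.33 in WT. The groups did not overlap, and the change was -0.17 ± 0.10 (SE; limma, adjusted p = 0.655). Sdhd, the other anchor, measured 7.05, 7.56 and 8.21 in KO and 7.50, 7.78 and 7.86 in WT. KO replicates 1 and 3 were its lowest and highest arrays, and its change of -0.10 was 0.18 without KO replicate 1. Sdhb, the iron-sulfur subunit, measured 10.96, 11.28 and 11.35 in KO and 11.23, 11.39 and 11.28 in WT, and its change of -0.10 was 0.015 without that array. The median of complex II became -0.19 if KO replicate 3 was left out, -0.20 if WT replicate 1 was, and -0.069 if WT replicate 2 was. The 4 complex II assembly factors were all lower, with a median of -0.16, and 3 were lower without KO replicate 1.

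Complex III, the cytochrome bc1 complex, had a median of -0.053 with 5 of 6 genes lower. Its core proteins differed in sign. Uqcrc1 measured 12.39, 12.50 and 12.52 in KO and 12.47, 12.74 and 12.61 in WT, with an overlap at WT replicate 1 and a change of -0.14 ± 0.12 (SE; limma, adjusted p = 0.729). Uqcrc2 measured 13.27, 13.59 and 13.47 in KO and 13.46, 13.28 and 13.37 in WT, and the change of 0.070 was -0.17 under median scaling. The small subunits Uqcr10, Uqcr11, Uqcrh and Uqcrq were all lower with 6 arrays, with changes of -0.069 to -0.024. Single arrays turned some of these: Uqcrq was 0.041 without KO replicate 3 and 0.024 without WT replicate 2. Uqcrh was 0.044 without KO replicate 1. Uqcrh, the hinge protein and the brightest of the complex, measured 14.61, 14.89 and 14.93 in KO and 14.86, 14.81 and 14.93 in WT, and only KO replicate 1 stood apart. The median of complex III was -0.026 without WT replicate 2 and -0.025 without WT replicate 3. The nuclear cytochrome c1 gene Cyc1 and the assembly factor Uqcc2 had changes of -0.15 and -0.22, and Uqcc2 had groups that did not overlap.

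Complex IV, cytochrome c oxidase, had a median of -0.17, with 9 of 11 genes lower and none free of overlap. Its 8 widely expressed subunits had a median of -0.12, or -0.035 without KO replicate 1. The other genes counted were the muscle forms Cox6a2 and Cox7a1 and the supercomplex factor Cox7a2l, whose own change was -0.17. Ndufa4 was counted with complex I by its name. Cox7a2, the widely expressed form of subunit 7a, measured 7.88, 8.75 and 8.74 in KO, against 8.76, 8.69 and 8.82 in WT. KO replicate 1 alone lay low, and the change of -0.30 ± 0.23 (SE; limma, adjusted p = 0.703) was -0.014 without it. Cox7b measured 6.59, 6.68 and 6.75 in KO, against 7.01, 7.07 and 6.69 in WT. Its groups overlapped only through WT replicate 3, and its change was -0.25 ± 0.13 (SE; limma, adjusted p = 0.615). The supercomplex factor Cox7a2l measured 12.26, 12.84 and 12.74 in KO and 12.82, 12.73 and 12.81 in WT, again with KO replicate 1 alone standing low.

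Several complex IV subunits have a widely expressed and a tissue-restricted form. Cox4i1, Cox6a1 and Cox6b1, the widely expressed forms, had changes of -0.076, -0.16 and 0.017, of which that of Cox6b1 was -0.23 under median scaling. Cox4i2, Cox6b2, Cox7b2, Cox8b and Cox8c, forms known from lung, testis or muscle, were detected on 0 arrays. The muscle forms Cox6a2 and Cox7a1 were detected near the bottom of the scale. Cox6a2 measured 6.02, 6.47 and 5.90 in KO and 6.49, 6.32 and 6.34 in WT, and Cox7a1 measured 5.63, 5.74 and 5.70 in KO and 6.17, 5.67 and 5.89 in WT. Both overlapped between groups, with changes of -0.25 and -0.22. Cox5b, which holds the zinc site, had probes that went opposite ways, 0.022 for the brighter and -0.18 for the other. Of 18 complex IV assembly factors, 16 were lower with a median of -0.11, and 12 were lower with a median of -0.047 without KO replicate 1. Coa4 was lower on all KO arrays, at 9.24, 9.25 and 9.44, against 9.50, 9.67 and 9.56 in WT (limma, adjusted p = 0.532).

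Complex V had a median of -0.049 with 14 of 16 genes lower, and it held the member with the largest difference. Atp5e encodes the epsilon subunit of the central stalk of the F1 head. It measured 7.14, 7.60 and 7.47 in KO, against 8.01, 8.16 and 7.84 in WT. All KO arrays lay below all WT arrays. The change was -0.60 ± 0.15 (SE), with a 95% interval of -0.96 to -0.24, or 1.52-fold lower, and the adjusted p of limma was 0.304. Its probe was dim, with raw intensities of 222.7 to 440.6 where the array medians were 133.8 to 153.5. The size depended on the processing: over the alternatives that kept all 6 arrays the change lay between -0.77 and -0.37. Over all alternatives the adjusted p of limma lay between 0.134 and 0.656, and without KO replicate 1 the change was -0.47.

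The other F1 genes were closer to 0. Atp5d, the delta subunit beside epsilon in the stalk, measured 12.20, 12.32 and 12.20 in KO, against 12.37, 12.62 and 12.33 in WT. These groups did not overlap, and the change was -0.20 ± 0.12 (SE; limma, adjusted p = 0.646). Atp5b, the catalytic beta subunit, measured 14.99, 15.02 and 15.05 in KO and 15.06, 14.98 and 15.07 in WT, a change of -0.018 that was 0.090 with cyclic loess. The c-ring genes Atp5g2 and Atp5g3, which encode the same mature protein, had changes of -0.11 and -0.17. Atp5h, in the peripheral stalk, measured 11.90, 12.45 and 12.51 in KO and 12.20, 12.63 and 12.57 in WT, and its change of -0.18 was 0.010 without KO replicate 1. Atp5md, a small membrane subunit, had the largest positive value of the complex, 0.21 with an SE of 0.36, from 5.59, 5.85 and 6.67 in KO and 5.17, 6.30 and 6.01 in WT. Of the complex V assembly factors Tmem70 and Atpaf2 had changes of -0.19 and -0.0017, and the inhibitor gene Atpif1 had -0.090. The median of complex V became -0.086 if KO replicate 2 was left out, -0.10 if KO replicate 3 was, and -0.11 if WT replicate 1 was.

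**Figure D4:**
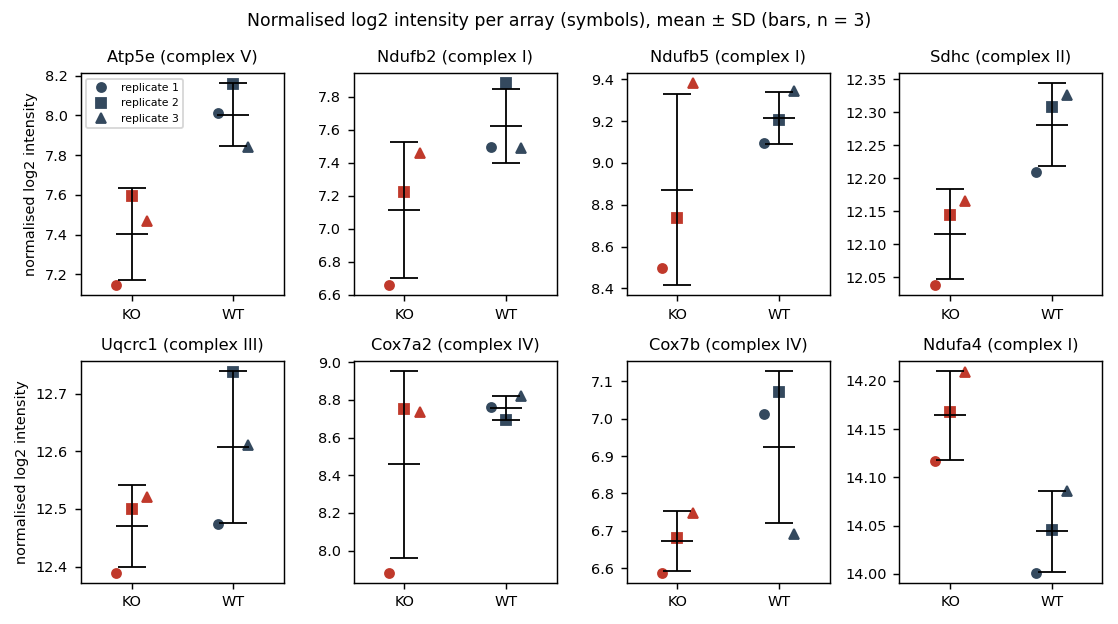
Normalised log2 intensity of 8 members on each KO array (left) and WT array (right) in each panel, with a symbol per replicate and the mean ± SD as bars (n = 3). Atp5e, Ndufb2 and Sdhc do not overlap between groups, Cox7a2 is low on KO replicate 1 alone, and Ndufa4 lies higher in KO (change -0.13 under median scaling).

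For 25 members more than 1 probe was kept, and in 6 of them the probes gave changes of opposite sign. These were Atp5j (0.038 and -0.17), Cox5b, Cox6b1 (0.017 and -0.013), Ndufa5 (0.063 and -0.27), Ndufaf4 (-0.20 and 0.063) and Ndufaf5 (-0.062 and 0.091), with the brighter probe first. The members with no test were, beside the 5 undetected complex IV forms, Ndufs1, Ndufaf6, Sdha and Uqcrfs1. Ndufs1, Sdha and Uqcrfs1 encode core redox subunits, and what their probes' low signal says of the transcripts was not tested.

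Mitochondrial DNA encodes the other subunits of complexes I, III, IV and V. Of 7 such transcripts tested, 6 were higher in KO with a median of 0.11, although under median scaling 3 were higher and 4 lower with a median of -0.095. The median was 0.055 with KO replicate 3 left out, 0.21 with KO replicate 2 left out and 0.18 with WT replicate 3 left out, and 4 of 7 were higher with WT replicate 1 left out. None passed the test, and their difference from the nuclear genes was not tested. ND4L, a complex I subunit, measured 6.59, 6.59 and 7.22 in KO and 6.23, 6.69 and 6.40 in WT (change 0.36; limma, adjusted p = 0.634). COX2, a core subunit of complex IV, measured 12.54, 12.28 and 12.58 in KO and 11.98, 12.59 and 12.06 in WT, and WT replicate 2 was the highest array. CYTB, the cytochrome b of complex III, measured 14.78, 14.65 and 14.53 in KO and 14.89, 14.82 and 14.69 in WT, a change of -0.15. KO replicate 1, the low array of the nuclear genes, had a median deviation of 0.068 over these transcripts.

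Among regulators of mitochondrial biogenesis, 9 were higher and 8 lower, and 0 of 17 passed the test. At an unadjusted p under 0.05 there were 3, all lower in KO, against 4.27% of all features lower and 9.27% in both directions. The split of higher and lower moved with single arrays and scaling. Lower in KO were 11 of 17 without KO replicate 1, 10 without WT replicate 3 and 7 with cyclic loess. Under median scaling 16 were lower with a median of -0.19, where the median of all features was -0.17. Polg, the mitochondrial DNA polymerase, was the single gene of the list with all KO values above the WT values, at 9.10, 8.56 and 8.54 in KO and 8.42, 8.49 and 8.51 in WT, and was picked out after its values were seen. Tfb1m, the methyltransferase of the mitochondrial small ribosomal RNA, measured 7.83, 7.75 and 8.06 in KO, against 8.13, 8.59 and 8.42 in WT (change -0.50; limma, adjusted p = 0.374). Gabpb1, the beta subunit of GABP, measured 8.98, 9.27 and 9.40 in KO, against 9.58, 9.49 and 9.69 in WT (change -0.37; limma, adjusted p = 0.477). Tfam, which packages and transcribes mitochondrial DNA, measured 10.86, 10.84 and 10.86 in KO, against 11.03, 11.14 and 11.17 in WT (change -0.26; limma, adjusted p = 0.492). These 3 genes were picked for the smallest p of the list, and in each all KO arrays lay below all WT arrays. That held for 4 of the 17 genes, against 7.69% of all features. KO replicate 1 was not apart from the other KO arrays for Tfb1m and Tfam.

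The genes that feed the chain were also mostly lower, with none past the test. In pyruvate entry and the TCA cycle 14 of 18 were lower with a median of -0.099, and 10 of 18 with a median of -0.0096 without KO replicate 1. With KO replicate 3 left out the median was -0.19. Pdk1, the kinase that inhibits pyruvate dehydrogenase, measured 11.01, 10.80 and 10.68 in KO, against 11.29, 11.16 and 11.25 in WT (change -0.40; limma, adjusted p = 0.374). Fumarate hydratase, Fh1, measured 11.72, 11.66 and 11.77 in KO, against 12.06, 12.06 and 11.98 in WT (change -0.32; limma, adjusted p = 0.398). Both genes, picked for a small p, had groups that did not overlap, without a low KO replicate 1. Of the 18 genes, 3 lay lower in KO without overlap, against 7.69% of all features, and 0 lay higher. Of cytochrome c and coenzyme Q synthesis genes 9 of 11 were lower, with Coq7, a hydroxylase of that synthesis, at -0.35 and cytochrome c, Cycs, at -0.24. All 5 tested carriers and inner membrane partners were lower, with a median of -0.11 (-0.059 with WT replicate 2 left out, and 4 of 5 lower with KO replicate 1 or 2 left out), among them the phosphate carrier Slc25a3 (-0.24) and the ADP/ATP carrier Slc25a5 (-0.11).

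**Figure D5:**
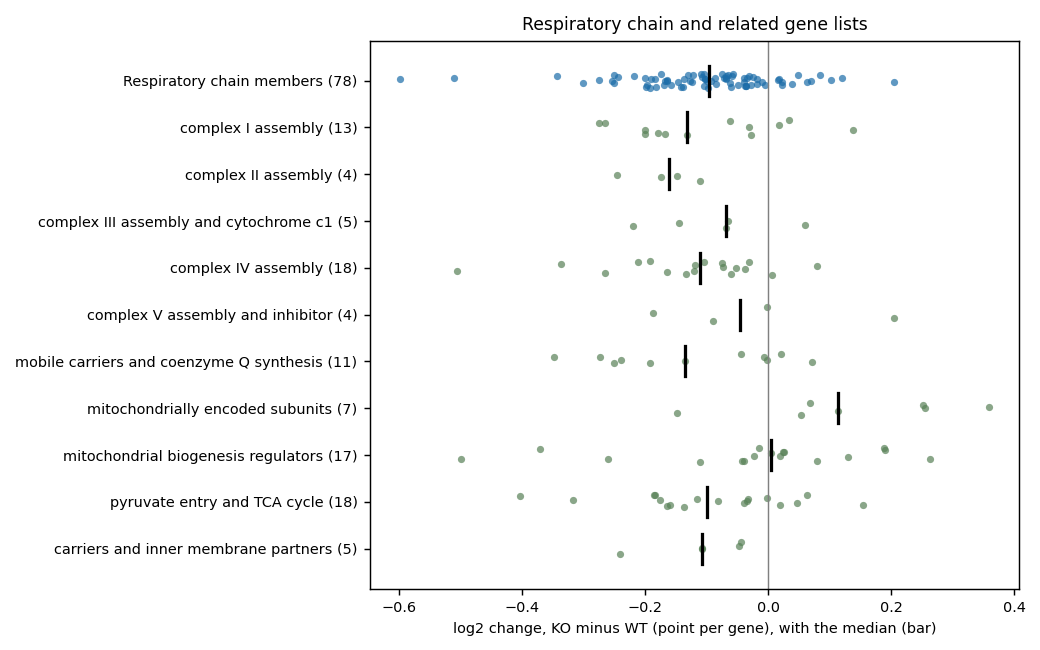
Log2 change, KO minus WT, of each gene (point) in the respiratory chain and in 10 related lists, with the median (bar) and the number of genes tested in brackets; complex I assembly includes the Ndufaf members and complex V assembly includes Atp5md. The mitochondrially encoded subunits have a median of 0.11 (-0.095 under median scaling), and the respiratory chain members a median of -0.096.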

How the data were processed

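Total RNA of 3 KO and 3 WT leukemia samples was measured on Illumina mouse bead arrays. Amplification started from 10 ng of RNA, per the labels' protocols, and biotin was the label. The labels describe both a culture treatment of 36 hours and tamoxifen in mice (5 mg per mouse), and call the samples biological replicates. The labels do not say whether they are separate leukemias, so a p-value covers only the spread of these 6 samples, which may be technical. The deposited table held linear intensity values and a detection p-value per probe and array, per the file headers. Its lowest intensity was 101.9, so no background had been subtracted. A second deposited table held the authors' log2 values, which differed from quantile-normalized log2 intensities by at most 0.0195. No source used here gives the scanner software.

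Intensities were normalized with neqc in limma 3.58.1 (R 4.3.3), which models background from the detection p-values, adds 16 and returns quantile-normalized log2 values. Quantile normalization hides a shift shared by most genes. Probes with a detection p under 0.05 on at least 3 arrays were kept (16287 of 45281), the brightest probe per gene was used, and 2405 probes with no single symbol (none or several) stayed as features. KO minus WT was fitted by lmFit and eBayes, and p-values were adjusted by Benjamini-Hochberg over 11241 features and no covariate. The lower bound for Hes1 sets its WT mean against the lowest detected signal. Named genes were Hes1, in each complex the 3 largest changes each way, the brightest member and members with an unadjusted p under 0.05, isoform sets, members with discordant probes and up to 3 genes per list by p. Members and lists were chosen with earlier results of these data known.

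On data simulated from these arrays, with 200 genes changed, the test recovered 1.84% of genes changed by 0.5 on the log2 scale, 49.5% of those changed by 1 and 95.0% of those changed by 2 (5 runs, on average 13727.6 features). Of the calls made there, 7.98% were of unchanged genes. The simulated noise was independent between genes, so a shift shared by many genes on 1 array, as on KO replicate 1, was not simulated. The alternatives for the count of members lower in KO and for list genes were added after the data were seen. Alternatives varied background correction, scaling, filters, probe choice, weights, the prior, blocks and left-out arrays. Columns of other samples numbered 0.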

Additional observations from a re-analysis of the deposited data

How the results depend on the processing

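No member passed the test under any alternative, and 74 to 87 members entered it. Between 53 and 76 members were lower in KO, or 50 to 70 with 1 array left out. Of 1085 pairs of a named gene and an alternative, 1044 kept direction and side of the threshold and 41 changed sign. The sign changes listed below are those of the named genes only. Median scaling in place of quantile normalization moved the median of all features to -0.17, of all members to -0.31, and of complexes I, II, III, IV and V to -0.32, -0.31, -0.26, -0.37 and -0.28. It gave 76 members lower (76.9% of all features) and 35 without overlap, 35 of them lower (19.7% of all features), and it turned Ndufa4 (-0.13), Ndufa6 (-0.14), Ndufa13 (-0.23), Uqcrc2 (-0.17), Cox5b (-0.25), Cox6b1 (-0.23), Atp5j (-0.22), Ndufa5 (-0.17) and Ecsit (-0.057). Cyclic loess turned Cox5b (-0.017), Atp5b (0.090) and Atpaf2 (0.024). The mean of a gene's probes turned Cox5b (-0.080), Atp5j (-0.066), Ndufa5 (-0.10) and Ndufaf5 (0.015). Array weights, 0.244 for KO replicate 1, gave 53 members lower and turned Sdhd (0.14), Sdhb (0.0080), Cox6b1 (-0.022), Cox4i1 (0.024), Ndufaf5 (0.0097) and Atpaf2 (0.0082). Leaving out each array in turn, the median of complex IV was -0.24 to -0.055. Members without overlap then numbered 10 to 23, where 21.9% to 28.4% of all features did not overlap, against 16.2% with 6 arrays. Those lower numbered 8 to 22, where 10.5% to 13.9% of all features lay lower without overlap, against 7.69% with 6 arrays. The named genes that changed sign when an array was left out were Sdhd (-0.41 to 0.18), Sdhb (-0.18 to 0.015), Uqcrh (-0.12 to 0.044), Atp5h (-0.32 to 0.010), Cox4i1 (-0.14 to 0.034), Tmem70 (-0.33 to 0.037), Uqcrc2 (-0.0025 to 0.16), Cox6b1 (-0.034 to 0.074), Ndufb4 (-0.30 to 0.54), Atp5md (-0.12 to 0.44), Atpaf2 (-0.033 to 0.057), Ndufa6 (-0.0011 to 0.18), Ndufaf5 (-0.13 to 0.017), Cox5b (-0.042 to 0.056) and Uqcc1 (-0.13 to 0.0040). Members outside the named genes changed sign too. Among them were Atp5a1 (-0.24 without WT replicate 1, 0.11 without WT replicate 2) and Ndufb10 (-0.28 and 0.058 without the same arrays). The cause was not tested. Hes1 passed under every alternative that kept it; detection on all arrays, as an alternative filter, removed it. With the replicate block, 0 members passed and the smallest adjusted p of a member was 0.475 (limma), for Atp5e. Deviations from the group mean on same-numbered arrays correlated at -0.098, -0.27 and 0.15. With 3 arrays per group, these values cannot decide whether same-numbered samples are paired. The number of arrays limits the precision.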

Other observations

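Members with an NRF1 match in the promoter window had a median log2 change of -0.11 (14 of 17 lower in KO), and those without a match had -0.090 (42 of 50). With a GABP match the median was -0.086 (14 of 18), and without it -0.098 (42 of 49). For the class C element the median was -0.059 with a match and -0.10 without, and for the N box -0.11 with a match and -0.070 without. NRF1 matches were in 6 of 14 complex V genes with a window and in 6 of 32 complex I genes. The gene for NRF1 itself measured 10.47, 10.66 and 10.56 in KO and 10.60, 10.41 and 10.43 in WT, with overlap, and Gabpa measured 7.32, 7.41 and 7.45 in KO and 7.57, 7.51 and 7.43 in WT. The coactivator gene Ppargc1a was detected on 0 arrays.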
